A study of Rattus norvegicus with 8 samples.

Results

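The genes described here are those of Wnt signalling: the Wnt ligands, the frizzled receptors and their co-receptors, the secreted antagonists and agonists, and the proteins that carry the signal inside the cell. They were chosen by symbol from the annotation of the array. The choice took the genes of the families Wnt, Fzd, Dkk, Sfrp, Axin, Dvl, Rspo and Nkd, with Lrp5, Lrp6, Ctnnb1, Apc, Gsk3b, Tcf7, Tcf7l1, Tcf7l2, Lef1, Frzb, Wif1, Porcn and Ccn4. This gave 48 of the 14217 genes that have a probe set naming 1 gene only, and all 48 are accounted for below. A RefSeq gene table holds 61 genes that meet the same rule, and the other 13, among them Dkk1, Fzd7, Wnt3a and Rspo2, were not analysed here. They comprise 13 ligands, Porcn, 7 receptors, 2 co-receptors, 2 agonists, 8 secreted antagonists, 4 transducers, 4 members of the destruction complex, 2 cytoplasmic inhibitors, 4 nuclear factors and the secreted target Ccn4.

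The cells were chondrocytes in primary culture, prepared from femoral condyles of Sprague Dawley rats at an age of 1 day. They were grown on plastic until nearly confluent and then kept without serum overnight. They were pretreated for 30 minutes with the solvent DMSO or with U0126, an inhibitor of the kinases MEK1/2, which activate ERK1/2. BSA vehicle or TNFα (TNF-a in the labels, 30 ng/ml) was then added for 24 h, which gave the groups DMSO, U0126, TNFα, and U0126 and TNFα. Each group has 2 arrays, 1 from each of 2 independent experiments, 8 arrays of the type RAT230_2.0 in all.

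A Wnt protein is lipidated by porcupine, secreted, and bound at the cell surface by a frizzled receptor together with the co-receptor Lrp5 or Lrp6. In the canonical branch this recruits dishevelled, inactivates the complex of axin, Apc and Gsk3b that marks β-catenin for destruction, and lets β-catenin act with the TCF and LEF factors in the nucleus. In cartilage the balance between Wnt ligands and their antagonists is known to influence chondrocyte differentiation and matrix loss, and Frzb is known as a cartilage-derived antagonist.

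Levels are intensities on a linear scale, after each array was centred on its median, and a fold is the ratio between 2 arrays of the same experiment. The 8 array medians lay between 365.1 and 378.2 as deposited. The brightest probe set stood for each gene. Brightness depends on the probe, so levels are compared between arrays. Between genes they serve only to name bright or dim probe sets and to sum markers of cell types. In such a sum the brightest probe sets weigh most. Mean intensities of the 48 ran from 41.6 for Wnt8b to 21688 for Sfrp2, and 21 lay under 369, the mean of the array medians. Whether a dim probe set exceeded background was not assessed. A gene was counted as higher or lower where limma, with the experiment as a block, gave an adjusted p under 0.05. The fold rule of the methods was applied beside it. It asks for a log2 fold of at least 0.54 in size, with 1 direction, in each experiment, and has no p. TNFα raised Ccl2, a chemokine, 50.3-fold and 20.5-fold in experiments 1 and 2. U0126 over DMSO gave 0.35-fold and 0.36-fold for Egr1, a gene induced by ERK signalling (limma adjusted p = 0.0527). Among markers of cell types, the chondrocyte collagen Col2a1 lay between 24282 and 32104 on the 8 arrays. Col1a1, a collagen of fibroblasts, lay between 28732 and 34888. The summed intensity of 10 macrophage markers lay between 3054 and 4720.1, with Ptprc at no more than 69.7 and Cd14 at up to 1659.6. That of 5 endothelial markers lay between 623 and 1039.6, with Pecam1 at no more than 80.4 and Tek at up to 600.02, and that of 4 muscle markers between 471 and 511. The 3 adipocyte markers summed to between 1359.9 and 18352, led by Fabp4.

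TNFα lowered Ccn4, Fzd8, Tcf7 and Dkk3, and raised none of the 48 genes in the limma test. These 4 have different roles: a secreted protein induced by Wnt signalling, a receptor, a nuclear factor and a secreted protein of the dickkopf family. Of all 14217 genes, 2.12% were called lower and 4.21% higher with TNFα. At an unadjusted p under 0.05, 15 of the 48 were lower and 6 higher, where 14% of all genes were lower and 14% higher. The median log2 fold change of the 48 was -0.12, against -0.01 for all genes. Lower values in both experiments were seen for 26 of the 48, or 54.2%, against 37.5% of all genes, and higher values in both for 8, or 16.7%, against 32.7% of all genes.

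Ccn4, formerly Wisp1, had intensities of 1885 and 855 with DMSO and 1070.3 and 579 with TNFα in experiments 1 and 2. With U0126 it stood at 1905 and 835, and with U0126 and TNFα at 1269 and 638. Its level in experiment 2 was 0.44-fold to 0.54-fold of that in experiment 1 under every treatment, so the groups overlapped, while within each experiment both arrays given TNFα lay under both arrays without it. The fold with TNFα was 0.57 and 0.68 (log2 fold change -0.69, standard error 0.09, limma adjusted p = 0.00887). Ccn4 was the only one of the 48 past the fold rule with TNFα, in a comparison where 0.492% of all genes were lower by that rule. With no centring of the arrays, 0 members passed it.

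Fzd8, a frizzled receptor, had intensities of 1749.5 and 2165 with DMSO and of 1868 and 2073 when U0126 was given. The TNFα arrays read 1018 and 1573, and those with both agents 1311 and 1607. All 4 arrays given TNFα lay below all 4 arrays without it. Its fold with TNFα was 0.58 and 0.73 (log2 fold change -0.62, standard error 0.11, limma adjusted p = 0.0283).

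Tcf7, a TCF factor that binds DNA with β-catenin, had intensities of 476 and 482 with DMSO and of 479 and 486 when U0126 was given. The TNFα arrays read 349.6 and 381, and those with both agents 336 and 358. The 4 arrays without TNFα lay close together, and the 4 with it were all lower. The fold with TNFα was 0.73 and 0.79 (log2 fold change -0.39, standard error 0.06, limma adjusted p = 0.0205).

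Dkk3 had intensities of 3004 and 3853 with DMSO and 2436 and 3036 with TNFα, which was lower in both experiments, although the groups overlapped across experiments. Its log2 fold change was -0.32 (standard error 0.07, limma adjusted p = 0.0495). The other 3 probe sets of Dkk3 were dimmer, with mean intensities of 203, 176 and 30.3, and did not pass, at log2 fold changes of -0.35, -0.13 and 0.02. The calls changed with the settings of the fit and the arrays used, and the cause of this was not tested. Where an array is left out, the other array of its group is assumed to vary like the other groups. For the settings that follow, the share of all genes called is not given here. limma called 0 of the 48 with no replicate block, 0 with only the 4 arrays compared, 0 without DMSO of experiment 1, and only Ccn4 without DMSO of experiment 2 or without either array of U0126 and TNFα. Without either U0126 array it called Ccn4, Fzd8 and Lef1, without TNFα of experiment 1 Ccn4, Frzb and Wif1, and without TNFα of experiment 2 Ccn4, Fzd8, Tcf7, Fzd1 and Nkd1.

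**Figure D1:**
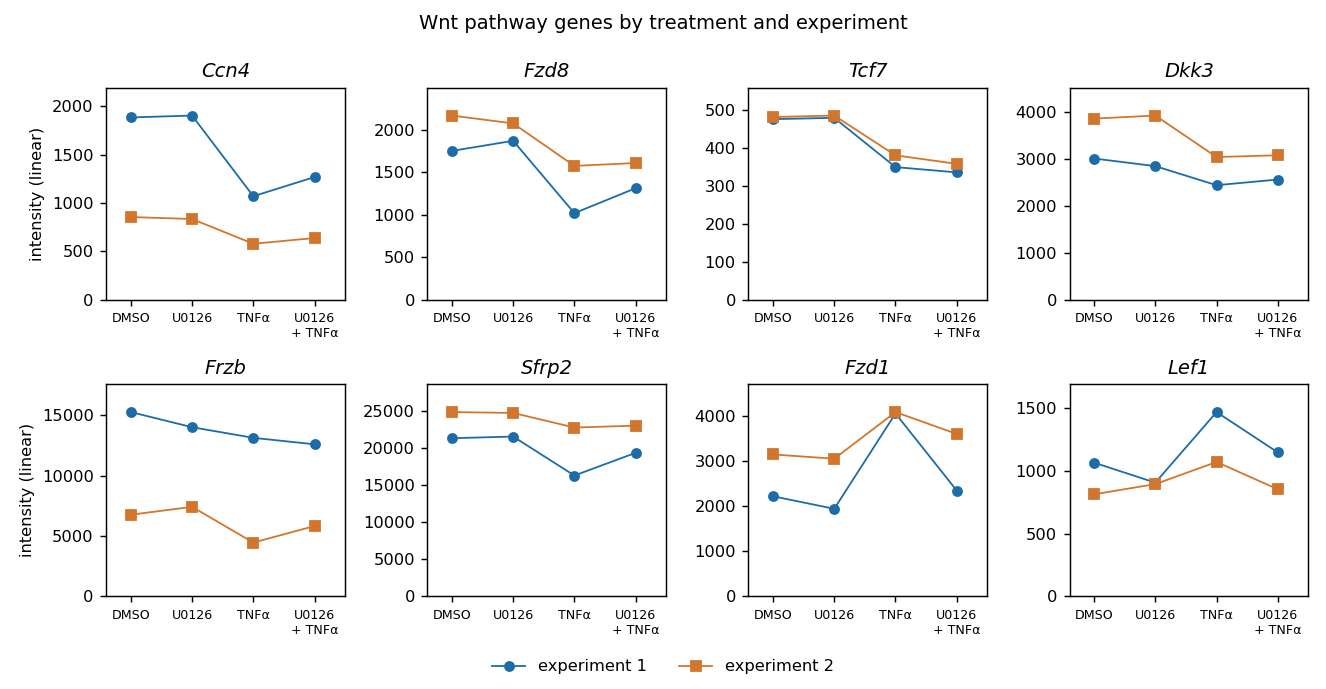
Intensity on a linear scale (vertical axes, from 0) of 8 genes under the 4 treatments, with 1 point per array and a line for each experiment (blue circles, experiment 1; orange squares, experiment 2). Ccn4, Fzd8, Tcf7 and Dkk3 are lower in both experiments with TNFα than with DMSO, and Fzd1 and Lef1 are higher in both without passing the limma test.

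None of the 13 Wnt ligands passed the limma test with TNFα, and their log2 fold changes lay between -0.32 for Wnt4 and 0.21 for Wnt5a, with a median of -0.13. Lower values in both experiments were seen for 7 ligands and higher values in both for 2, Wnt5a and Wnt6. Wnt1, the brightest probe set among the ligands, had intensities of 1672 and 1663 with DMSO and 1548 and 1451 with TNFα (log2 fold change -0.15, standard error 0.07). Wnt16, at 134 and 136 with DMSO and 107 and 118 with TNFα, had the smallest adjusted p of the ligands (log2 fold change -0.26, limma adjusted p = 0.0663). Wnt5a, which mostly signals without β-catenin, stood at 661 and 499 with DMSO and at 828 and 531 with TNFα. The Wnt5a groups overlapped, since the DMSO array of experiment 1 was brighter than the TNFα array of experiment 2. Porcn, the acyltransferase that lipidates Wnt proteins, was at 1.02-fold and 0.91-fold.

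Among the 7 receptors, Fzd8 fell while Fzd1 and Fzd4 had higher values in both experiments without passing. Fzd1, the brightest receptor probe set on average, had intensities of 2223 and 3152 with DMSO and 4062 and 4093 with TNFα. Both TNFα arrays were above both DMSO arrays, and the fold was 1.83 and 1.3 (log2 fold change 0.62, standard error 0.15, limma adjusted p = 0.0632). This was the largest positive log2 fold change of the 48. Over 15 alternatives it ran from 0.33 to 0.91 and was called in 1, that without the TNFα array of experiment 2 (limma adjusted p = 0.0053), where the remaining TNFα array was assumed to vary like the other groups. Fzd4, which also binds the ligand norrin, stood at 2207 and 3321 with DMSO and 3426 and 3721 with TNFα, a log2 fold change of 0.40 (standard error 0.17, limma adjusted p = 0.19). Fzd2, Fzd3, Fzd5 and Fzd6 had log2 fold changes between -0.12 and 0.17.

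The co-receptors showed little difference with TNFα, with log2 fold changes of -0.04 for Lrp5 (95% interval -0.32 to 0.25) and -0.05 for Lrp6 (-0.25 to 0.15). Lrp6 differed far more between the experiments, at 4235 and 8784 with DMSO and 4375 and 7933 with TNFα. The R-spondins Rspo1 and Rspo3, secreted agonists that keep Wnt receptors at the cell surface, were lower in both experiments, with log2 fold changes of -0.24 and -0.17, and neither passed (limma adjusted p = 0.133 and 0.19).

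The secreted antagonists had the lowest median log2 fold change of the roles with more than 2 members. Of the 8, Dkk3 fell and 7 did not pass, with log2 fold changes between -0.49 and -0.25 and a median of -0.36. All but Dkk2 were lower with TNFα than with DMSO in both experiments. Sfrp2, a soluble frizzled-related protein, is the brightest of the 48 and stood at 21276 and 24795 with DMSO and 16254 and 22715 with TNFα (log2 fold change -0.26, standard error 0.08, limma adjusted p = 0.12). Sfrp1, which binds Wnt proteins in the same way, had 1174 and 3151 with DMSO and 1131 and 1649 with TNFα. Its fold of 0.96 and 0.52 came almost wholly from experiment 2. Sfrp4 stood at 651 and 1022 with DMSO and 538 and 727 with TNFα (log2 fold change -0.38, standard error 0.09, limma adjusted p = 0.0563). Sfrp5 stood at 305 and 258 with DMSO and 226 and 212 with TNFα, so that both TNFα arrays lay below both DMSO arrays (log2 fold change -0.36, limma adjusted p = 0.083). Frzb, the frizzled-related protein of cartilage, was at 0.86-fold and 0.66-fold, and Wif1, which binds Wnt proteins through its own WIF domain, at 0.88-fold and 0.69-fold. Dkk2, which blocks Lrp5 and Lrp6, was dim and went opposite ways, at 0.61-fold and 1.16-fold.

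Markers of cartilage were lower with TNFα too. All 10 chondrocyte markers measured were lower with TNFα in both experiments and 6 were called, among them Acan, the aggrecan core protein, at 0.67-fold and 0.69-fold. The summed intensity of the 10 ranged from 127825 to 195001 with DMSO and from 99752 to 151314 with TNFα. The part of this in the results above was not tested. In RNA from a whole culture, fewer cells of a type and less RNA per cell cannot be told apart. Of 10 macrophage markers, Cd68 rose and 9 did not pass, and of 7 fibroblast markers Pdgfra rose and Dpt fell.

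Inside the cell, the transducers and the destruction complex held no call. Ctnnb1, which encodes β-catenin, stood at 9971 and 15532 with DMSO and 9828 and 14617 with TNFα (log2 fold change -0.05, 95% interval -0.24 to 0.14). The dishevelled genes Dvl1, Dvl2 and Dvl3 had log2 fold changes from -0.08 to 0.09. Axin1 was at 1.05-fold and 1.06-fold, Apc at 1.05-fold and 1.22-fold, and Gsk3b at 1.14-fold and 1.12-fold. Axin2, an axin whose transcription β-catenin is known to induce, was at 0.76-fold in experiment 1 and 1.00-fold in experiment 2 (limma adjusted p = 0.257). Nkd1, which binds dishevelled and inhibits it, stood at 692 and 782 with DMSO and 416 and 663 with TNFα (log2 fold change -0.49, standard error 0.11, limma adjusted p = 0.0567). Another of its 3 probe sets, with a mean intensity of 333, passed (log2 fold change -0.55, limma adjusted p = 0.0475). Nkd2 was at 0.96-fold and 0.88-fold.

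The nuclear factors did not share a direction with TNFα. Tcf7 fell, whereas Lef1, its close relative, stood at 1066 and 813 with DMSO and 1469 and 1071 with TNFα. Both Lef1 values were higher with TNFα, at 1.38-fold and 1.32-fold, and it did not pass (log2 fold change 0.43, standard error 0.11, limma adjusted p = 0.0752). Its other probe set did not pass either (0.34, limma adjusted p = 0.0699). Tcf7l1 and Tcf7l2, the latter the brightest of the 4, had log2 fold changes of -0.13 and -0.06.

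Of the 36 genes with an entry in the RefSeq table of promoter windows (GRCr8, 250 bases before to 50 after the start), Tcf7, Nkd1 and Axin2 hold the letters CTTTGAT, a core sequence bound by TCF and LEF factors. The windows are shown because Tcf7 was called with TNFα and Nkd1 had the largest positive log2 fold change with U0126, and Axin2 completes the set. CTTTGAT was found on either strand in 8.33% of the 36 windows and in 3.63% of all 33469 windows. It was 1 of 9 spellings searched, which overlap in part. CTTTGTT, another TCF and LEF core, was in no member's window and in 5.98% of all. The EGR letters GCGNGGGCG were in 10 members' windows, or 27.8%, against 4.98% of all. The GC-rich letters GGGGCGGGG were in 11, or 30.6%, against 9.73% of all. The AP-1 letters TGANTCA were in 2, or 5.56%, against 7.33% of all. Capitals mark CTTTGAT. Each window is read along the strand of its gene: of 1991 overlapping pairs of windows on opposite strands in the table, 1991 read the same once the minus window was turned round. A match is a description of the letters only. The Tcf7 window lies on the minus strand at chr10:36954230-36954529, with the match across the start. The Nkd1 window lies on the minus strand at chr19:34722797-34723096, with the match 141 to 135 bases before the start. The Axin2 window lies on the plus strand at chr10:94398535-94398834, with the match from 132 bases before the start.
Tcf7: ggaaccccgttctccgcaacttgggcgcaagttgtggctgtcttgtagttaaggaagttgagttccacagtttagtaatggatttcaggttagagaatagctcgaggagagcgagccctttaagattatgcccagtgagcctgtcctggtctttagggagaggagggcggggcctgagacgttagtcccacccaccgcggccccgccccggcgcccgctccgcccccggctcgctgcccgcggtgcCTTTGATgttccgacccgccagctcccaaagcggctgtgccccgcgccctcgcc
Nkd1: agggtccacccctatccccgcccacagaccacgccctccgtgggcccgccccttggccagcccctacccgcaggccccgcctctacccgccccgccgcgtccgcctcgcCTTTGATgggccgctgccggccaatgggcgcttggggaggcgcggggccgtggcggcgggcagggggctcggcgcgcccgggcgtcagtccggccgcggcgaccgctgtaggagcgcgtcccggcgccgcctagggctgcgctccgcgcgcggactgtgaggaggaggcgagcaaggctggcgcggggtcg
Axin2: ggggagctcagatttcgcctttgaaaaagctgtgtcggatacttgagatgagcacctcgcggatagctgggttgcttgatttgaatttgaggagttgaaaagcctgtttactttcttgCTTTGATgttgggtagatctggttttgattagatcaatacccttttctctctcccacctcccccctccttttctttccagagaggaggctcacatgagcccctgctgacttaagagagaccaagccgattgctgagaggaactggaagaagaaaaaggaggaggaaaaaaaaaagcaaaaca

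With U0126 present throughout, TNFα lowered Tcf7 again and no other of the 48 by limma. Tcf7 was at 0.70-fold and 0.74-fold of U0126 alone (log2 fold change -0.48, standard error 0.06, limma adjusted p = 0.0231), in a comparison that called 0.513% of all genes lower. At an unadjusted p under 0.05, 12 of the 48 were lower and 0 higher, against 7.5% and 6.33% of all genes. The median log2 fold change was -0.08, against -0.01 for all genes, and 26 of the 48 had lower values in both experiments, or 54.2% against 34.9% of all genes.

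Ccn4 was at 0.67-fold and 0.76-fold of U0126 alone (log2 fold change -0.49, standard error 0.09, limma adjusted p = 0.0582) and Fzd8 at 0.70-fold and 0.78-fold (-0.44, limma adjusted p = 0.149). Nkd1 was at 0.69-fold and 0.73-fold (-0.49, limma adjusted p = 0.115), and its probe set with a mean intensity of 350.3 passed (-0.56, limma adjusted p = 0.038). Sfrp1 was the only one past the fold rule, at 0.69-fold and 0.52-fold (-0.74, standard error 0.19, limma adjusted p = 0.162), where 0.366% of all genes were lower by that rule, and it missed the rule when its probe sets were averaged. Of the 8 antagonists, 7 again had lower values in both experiments, and the exception was now Sfrp5. Lower values in both experiments were also seen for 7 of the 10 chondrocyte markers, with 0 called, and for all 3 adipocyte markers, of which Plin1 fell, and their part in the results was not tested. The call of Tcf7 ended without either array of U0126, without either array of U0126 and TNFα, and with no replicate block, which left 0 called. Without either TNFα array 4 were called, with Fzd8, Nkd1 and Ccn4 beside Tcf7.

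TNFα over DMSO and its counterpart with U0126 share no array. The sign of the mean log2 fold change was the same in both for 38 of the 48, or 79.2%, against 66.4% of all genes. Lower values in both experiments of both comparisons were seen for 16 of the 48, or 33.3%, against 19.2% of all genes. They were the ligands Wnt1, Wnt5b and Wnt9a, the receptor Fzd8, Rspo3, the antagonists Dkk3, Frzb, Sfrp1, Sfrp2, Sfrp4 and Wif1, the inhibitors Nkd1 and Nkd2, and Axin2, Tcf7 and Ccn4. Higher values in all were seen for Wnt6, Fzd1, Apc and Axin1, or 8.33%, against 17.0% of all genes. These counts set no minimum size: with TNFα in experiment 2, Axin2 stood at 280.2, against 280.6 with DMSO.

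**Figure D2:**
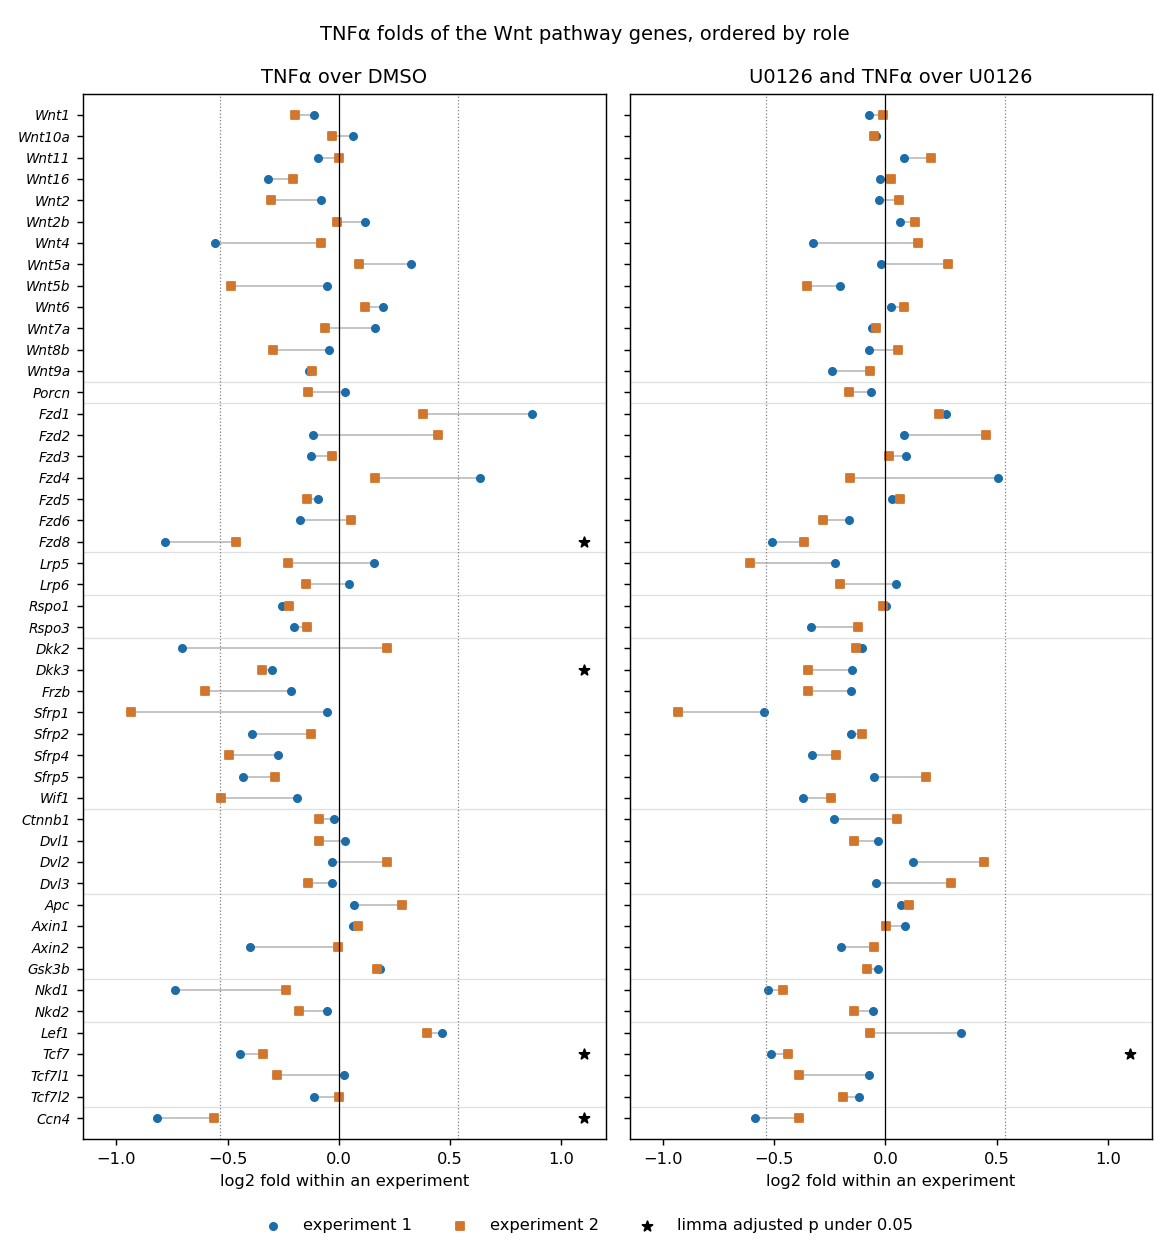
Log2 fold within each experiment (horizontal axes) for all 48 genes ordered by role, for TNFα over DMSO (left) and for U0126 and TNFα over U0126 (right). Circles are experiment 1, squares experiment 2, dotted lines mark the fold rule at 0.54, and a star marks a limma adjusted p under 0.05, which 4 genes reach on the left and Tcf7 alone on the right.

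U0126 gave its largest values in Nkd1, Sfrp4, Sfrp1 and Fzd4, with and without TNFα, and no member passed the limma test. Of all genes, limma called 0.0914% between U0126 and DMSO and 0.366% between U0126 and TNFα and TNFα alone, in either direction. At an unadjusted p under 0.05, 2 of the 48 were higher and 3 lower between U0126 and DMSO, and 4 higher and 6 lower when both groups had TNFα. Of all genes, 7.45% were higher and 6.01% lower at that p in the first of these comparisons, and 6.26% and 7.43% in the other. The medians of the 48 were -0.01 and 0.01 on the log2 scale, against 0.01 and 0.00 for all genes. When both groups had TNFα, all 10 chondrocyte markers had higher values in both experiments with U0126, and Acan and Cnmd rose, and their part in the results was not tested. In that comparison limma called Fzd1 and Nkd1 without the TNFα array of experiment 2, and Fzd4, Sfrp1, Sfrp4 and Nkd1 with only the 4 arrays compared.

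Nkd1 stood at 692 and 782 with DMSO and 1009 and 1290.1 with U0126, so both U0126 arrays were above both DMSO arrays. The fold was 1.46 and 1.65 (log2 fold change 0.63, standard error 0.11, limma adjusted p = 0.198), the only one of the 48 past the fold rule here, where 0.239% of all genes were higher by that rule. After quantile normalization 0 members passed it. With TNFα it stood at 416 and 663 without U0126 and at 699.98 and 936 with it, which was 1.68-fold and 1.41-fold (0.62, limma adjusted p = 0.0942). Its other 2 probe sets were at 1.46-fold to 1.83-fold over DMSO and 1.38-fold to 1.77-fold over TNFα alone. The U0126 response of Nkd1 thus lay above 1 on all 3 probe sets in both experiments, and its TNFα response below 1.

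Sfrp4 stood at 651 and 1022 with DMSO and 469 and 584 with U0126, with no overlap (log2 fold change -0.64, standard error 0.09, limma adjusted p = 0.123). With TNFα present it was at 0.69-fold in both experiments, from 538 and 727 to 373 and 499.9 (log2 fold change -0.54, limma adjusted p = 0.079). Its other probe set, dimmer at a mean intensity of 261, gave 0.96-fold and 0.89-fold over DMSO and 1.06-fold and 0.92-fold over TNFα. The 2 probe sets of Sfrp4 thus differed in the size of the difference. Over TNFα in experiment 1 they also differed in direction.

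Sfrp1 stood at 1174 and 3151 with DMSO and 869 and 1840.4 with U0126, or 0.74-fold and 0.58-fold (log2 fold change -0.60, standard error 0.19, limma adjusted p = 0.305). It was at 1131 and 1649 with TNFα, against 596 and 963 when U0126 was added, so both arrays with the inhibitor were lower than both without. The fold was 0.53 and 0.58 (log2 fold change -0.85, limma adjusted p = 0.152), and its other 2 probe sets lay between 0.56-fold and 0.74-fold. For Fzd4 the fold was 0.71 and 0.80 between U0126 and DMSO, and 0.65 and 0.64 against TNFα alone, from 3426 and 3721 to 2219 and 2377 (log2 fold change -0.64, standard error 0.17, limma adjusted p = 0.201). The other probe set of Fzd4 gave 0.72-fold and 0.80-fold in the latter comparison. Sfrp1 and Fzd4 were the 2 members past the fold rule there, and 0.71% of all genes were lower by that rule.

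**Figure D3:**
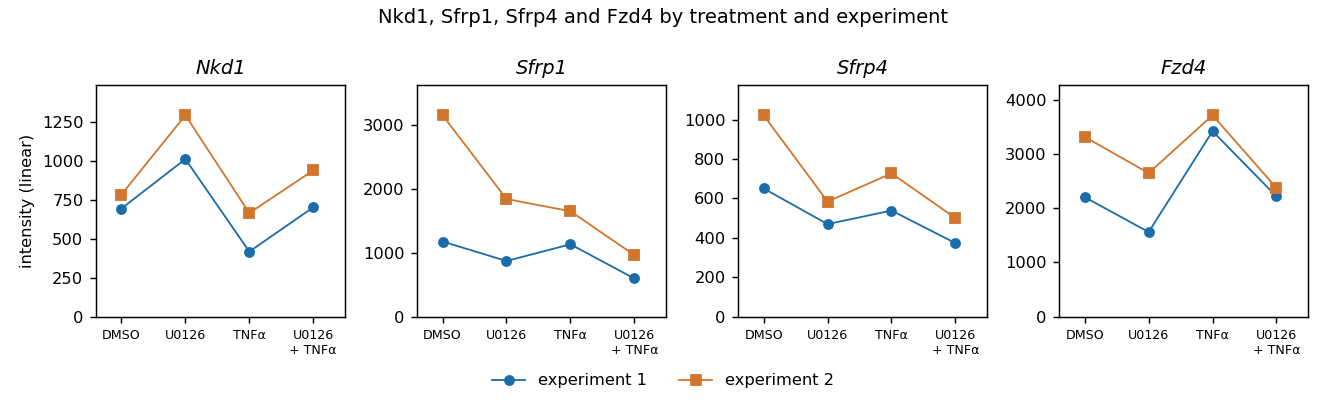
Intensity on a linear scale (vertical axes, from 0) of Nkd1, Sfrp1, Sfrp4 and Fzd4 under the 4 treatments, with 1 point per array (blue circles, experiment 1; orange squares, experiment 2). In each experiment Nkd1 is higher, and the other 3 are lower, with U0126 than without it at the same TNFα treatment.

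Several other members had an unadjusted p under 0.05 against TNFα alone. Sfrp5 stood at 226 and 212 with TNFα, against 318 and 265 when U0126 was added (log2 fold change 0.41, standard error 0.10, limma adjusted p = 0.168), while its values with U0126 and with DMSO overlapped. Fzd1 was at 0.58-fold and 0.88-fold of TNFα alone (-0.49, limma adjusted p = 0.267), and Lef1 at 0.78-fold and 0.80-fold (-0.34, limma adjusted p = 0.286). Lrp5 stood at 537 and 487 with TNFα, against 422 and 404 when U0126 was added (-0.31, limma adjusted p = 0.362). Dvl2 and Fzd5 had log2 fold changes of 0.44 and 0.21, and Tcf7l2 reached 1.11-fold and 1.13-fold between U0126 and DMSO. Ccn4, Fzd8, Tcf7 and Dkk3, which fell with TNFα, had log2 fold changes between -0.03 and 0.02 for U0126 over DMSO and between -0.07 and 0.20 for U0126 and TNFα over TNFα.

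U0126 over DMSO and its counterpart with TNFα also share no array, and the sign was the same for 27 of the 48, or 56.2%, against 56.7% of all genes. Lower values in both experiments of both were seen for Wnt6, Porcn, Fzd1, Fzd4, Lrp6, Sfrp1 and Sfrp4, or 14.6%, against 11.3% of all genes. Higher values were seen for Wnt5b, Fzd5, Dvl2, Nkd1 and Nkd2, or 10.4%, against 14.7% of all genes.

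**Figure D4:**
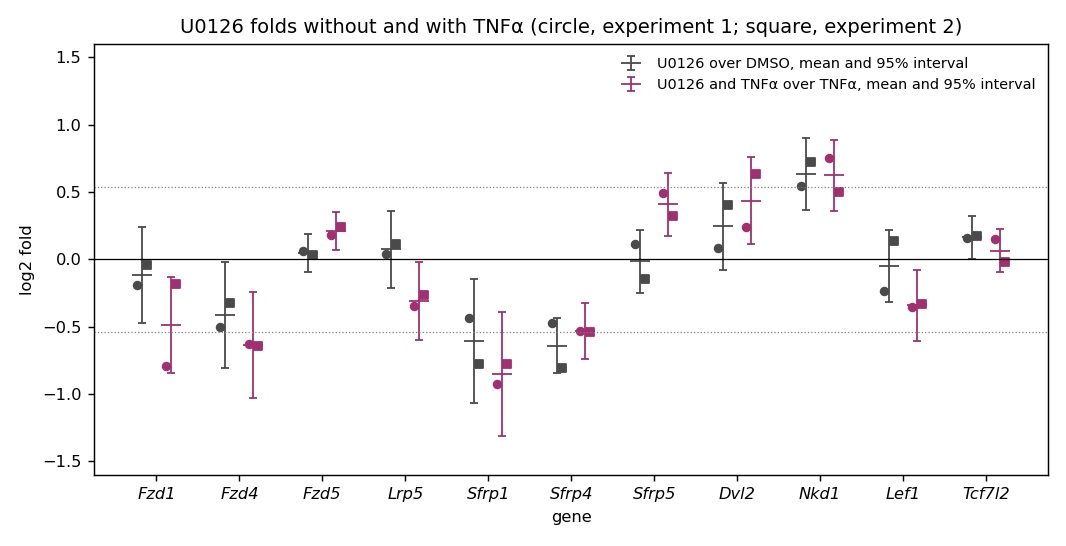
Log2 fold (vertical axis) of the members with an unadjusted limma p under 0.05 in either U0126 comparison, for U0126 over DMSO (grey) and for U0126 and TNFα over TNFα (purple). Bars are the limma mean with its 95% interval, circles and squares are experiments 1 and 2, and dotted lines mark the fold rule at 0.54. Nkd1 lies above 0, and Sfrp1, Sfrp4 and Fzd4 lie below 0, in both comparisons and both experiments.

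Whether U0126 altered the response to TNFα was tested as the difference of the 2 responses. limma called 0 of the 48 genes and 0% of all genes, and at an unadjusted p under 0.05 the counts among the 48 were 2 higher and 0 lower, Wnt16 and Sfrp5, against 3.85% and 4.61% of all genes. The largest differences were 0.42 on the log2 scale for Sfrp5 (95% interval 0.10 to 0.75, limma adjusted p = 0.525), -0.38 for Lrp5 (-0.79 to 0.02, adjusted p = 0.556) and -0.37 for Fzd1 (-0.87 to 0.14, adjusted p = 0.618). The Fzd1 value was -0.08 without the TNFα array of experiment 1 and -0.66 without that of experiment 2. The Sfrp5 value ran from 0.27 to 0.57 over the alternatives and the Lrp5 value from -0.54 to -0.23, and none of the 3 was called under any. Sfrp5 was at 0.74-fold and 0.82-fold with TNFα over DMSO and at 0.96-fold and 1.13-fold with U0126 on both sides. Fzd1 was at 1.83-fold and 1.3-fold when DMSO was the solvent control, and at 1.21-fold and 1.18-fold in the presence of U0126. For the 4 genes that fell with TNFα the differences were 0.20 for Ccn4 (-0.09 to 0.49), 0.18 for Fzd8 (-0.19 to 0.55), -0.08 for Tcf7 (-0.30 to 0.13) and 0.07 for Dkk3 (-0.16 to 0.31). The median standard error of a difference of responses was 0.12, against 0.09 for a comparison of 2 treatments.

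The level of many members differed between the 2 experiments. For 8 of the 48, the mean levels of the experiments were over 1.5-fold apart, and 27 differed in the same direction under all 4 treatments. These counts were not taken over all genes, so they do not set the members apart. Over all probe sets tested, deviations from the treatment means correlated at 0.728 to 0.829 between arrays of the same experiment. Frzb, at 15263 and 6757 with DMSO, was 0.44-fold in experiment 2 of its level in experiment 1, Ccn4 0.48-fold, Wif1 0.52-fold and Dvl2 0.58-fold. Dkk2 was 2.87-fold, Lrp6 1.93-fold, Sfrp1 1.91-fold and Ctnnb1 1.53-fold. Cell type markers moved with the experiment too. Acan stood at 21577 and 11287 with DMSO, and Fabp4, a lipid-binding protein of adipocytes, at 1515 and 11879.6. The summed intensity of the 3 adipocyte markers ranged from 2229 to 16830 with DMSO and from 1772 to 12520 with TNFα. All 3 were lower with TNFα in both experiments, and only Plin1 fell by limma. The part of these markers in the results was not tested.

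**Figure D5:**
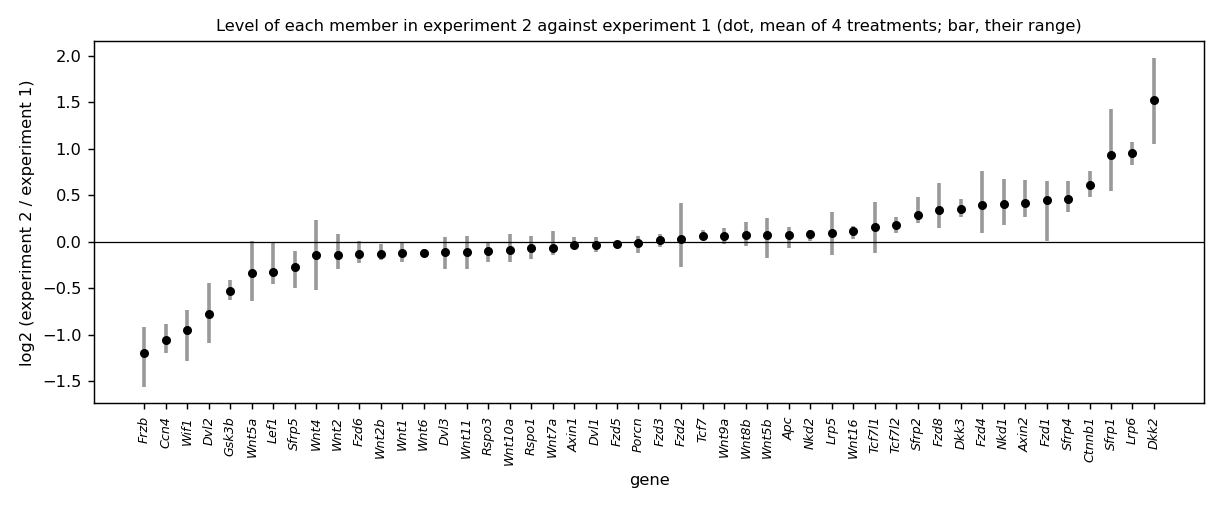
Log2 ratio of the level in experiment 2 to that in experiment 1 (vertical axis) for each of the 48 genes. Dots are means over the 4 treatments and bars run from the lowest to the highest treatment, with Frzb, Ccn4 and Wif1 lowest and Sfrp1, Lrp6 and Dkk2 highest.

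Other genes of the pathway, 74 measured of 87 listed, held 2 calls higher and 4 lower with TNFα, where 4.21% and 2.12% of all genes were called, and a median log2 fold change of -0.04. Those that fell were Cthrc1, a secreted protein that binds Wnt and frizzled (-0.64, limma adjusted p = 0.0197), the planar polarity genes Prickle1 (-0.53, limma adjusted p = 0.0242) and Daam2 (-0.44, limma adjusted p = 0.0243), and Dixdc1, a dishevelled-binding protein (-0.44, limma adjusted p = 0.035). Those that rose were Cd44, the hyaluronan receptor and a known target, at 3.40-fold and 1.67-fold (limma adjusted p = 0.027), and Bcl9l, a β-catenin cofactor (0.30, limma adjusted p = 0.0485). Of 20 measured known targets of the pathway, Cd44 alone was called, 9 had lower values in both experiments, or 45%, and 5 higher, or 25%, against 37.5% and 32.7% of all genes. This list leaves out the genes described above, among them Ccn4, which fell, and Axin2, which was not called. In the other 4 comparisons limma called 0 of the 74. At an unadjusted p under 0.05, 5 were higher and 4 lower between U0126 and DMSO (7.45% and 6.01% of all genes), and 6 and 12 between U0126 and TNFα and U0126 (6.33% and 7.5%). Between U0126 and TNFα and TNFα alone they were 10 and 4 (6.26% and 7.43%), and for the difference of the responses 3 and 1 (3.85% and 4.61%).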

How the data were processed

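RNA from primary rat chondrocytes under 4 treatments in 2 experiments was measured on 8 single-colour Affymetrix arrays. The authors deposited 1 linear intensity per probe set and array, made with RMA per the submitters' notes, with no version given. Treatment and replicate number were taken from the labels, and arrays with the same replicate number were taken as 1 experiment. Depth has no count on arrays, so the number of arrays limits precision. Of 31099 probe sets, 57 controls were left out. Names came from the array's annotation of 2016, and all 48 Entrez identifiers carry the same symbol in RefSeq. Among probe sets naming 1 gene, the brightest on average (log2) stood for the gene.

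Log2 values centred on each array's median were fitted with limma 3.58.1 in R 4.3.3, with terms for treatment and experiment over all 8 arrays (median residual SD 0.0752), and adjusted by Benjamini-Hochberg over 31042 probe sets. The replicate numbers pair the arrays: deviations from the treatment means correlated at 0.728 to 0.829 between arrays of the same number. limma was also run on simulated data with normal noise and a shift between experiments, as its model assumes. The outcome is not given here. Alternatives were other normalizations, filters, priors, arrays, probe sets and fold thresholds. The members and lists were chosen with earlier results of these data known. Genes were named where limma or the fold rule called them. They were also named where they had 1 of the 3 largest folds of a comparison or the highest level of their role. Of 6 controls listed by name, only Ccl2, Egr1 and Acan are given here. Other genes, such as Lef1, Frzb, Wif1 and Axin2, were chosen after their values were seen. Python 3.11.15 with pandas 2.3.3 and matplotlib 3.10.9 was used for the tables and plots.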

Additional observations from a re-analysis of the deposited data

Results flagged for a closer look

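For some genes, both experiments moved one way without the other agent and the opposite way with it. For these the difference of the responses had a value, on the log2 scale, that did not pass in the limma test. With TNFα these were Fzd3 (difference 0.131, adjusted p = 0.665), Fzd5 (0.167, adjusted p = 0.585) and Gsk3b (-0.237, adjusted p = 0.556). With U0126 these were Wnt16 (0.263, adjusted p = 0.529), Fzd3 again (0.131, adjusted p = 0.665), Lrp5 (-0.382, adjusted p = 0.556) and Tcf7 (-0.0839, adjusted p = 0.782). Each of these directions rests on 2 experiments.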

How the results depend on the processing

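With TNFα against DMSO, 4 of the 48 were called, against 0 with no replicate block, 0 with only the 4 arrays compared and 0 to 5 when an array was left out. With U0126 and TNFα against U0126, 1 was called, against 0 with no replicate block, 2 with the mean of a gene's probe sets, 5 with only the 4 arrays compared and 0 to 4 when an array was left out. With U0126 and TNFα against TNFα, 0 were called, against 4 with only the 4 arrays compared (Fzd4, Sfrp1, Sfrp4 and Nkd1) and 0 to 2 when an array was left out, the 2 being Fzd1 and Nkd1 without the TNFα array of experiment 2. For U0126 against DMSO and for the difference of the responses, 0 were called under every alternative run. By the fold rule, 1 member passed for TNFα against DMSO, and 3 at 1.3-fold, 0 at 2-fold, 3 by the geometric mean, 2 after quantile normalization and 0 with no centring. For U0126 against DMSO 1 passed, and 3 at 1.3-fold, 0 at 2-fold, 3 by the geometric mean and 0 after quantile normalization. For U0126 and TNFα against U0126 1 passed, and 4 at 1.3-fold, 0 at 2-fold and 0 with the mean of a gene's probe sets. For U0126 and TNFα against TNFα 2 passed, and 4 at 1.3-fold and 0 at 2-fold. Ccn4 was called with TNFα in 12 of 15 alternatives, Fzd8 in 8, Tcf7 in 6 and Dkk3 in 3. Over 18 log2 fold changes of named genes and 267 values under alternatives, 218 kept their side of the threshold, 36 lost a call, 13 gained one and 0 changed direction. The shares of all genes called under these alternatives are not given here. Whether the counts changed for the members alone cannot be told from them. The cause of these changes was not tested.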
